A study of Mus musculus with 6 samples.

Results

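Pax6 and Pax8 were higher in Tdg knockdown than in control mouse embryonic stem cells, and the other 7 genes of the Pax family did not pass the test. The Pax genes encode transcription factors that share a DNA-binding paired domain, and the family has 9 members in the mouse, Pax1 to Pax9. All 9 were chosen by gene symbol, out of 19938 genes with a row of their own on the array. The rule takes a gene's brightest row, and each Pax gene had exactly 1 row, so there was no choice of row. The family itself was chosen with earlier results of these data known, the increase of Pax6 among them. Groups of 3 arrays were compared: control E14 cells and E14 cells with knockdown of Tdg, which encodes a DNA glycosylase that removes oxidised forms of 5-methylcytosine. E14 is an established mouse embryonic stem cell line. All cells were kept on 0.1% gelatin with 15% serum and LIF at 1000 units/ml. They were transduced with lentivirus at a multiplicity of infection of 10 and selected from 48 h with puromycin at 2 ug/ml, per the labels' protocols. One protocol field names Kdm2b as the knocked-down gene, while titles and design name Tdg. What the control vector carried is not given in the sources used here, and neither is whether the arrays stand for independent cultures. Each p-value therefore rests on the spread among these arrays, which could be purely technical.

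Pax proteins fall into subfamilies by sequence: Pax1 with Pax9, Pax2 with Pax5 and Pax8, Pax3 with Pax7, and Pax4 with Pax6. They act in the embryo as regulators of organ and cell fate, Pax6 in the eye, forebrain and pancreatic islets and Pax8 in thyroid and kidney. In an embryonic stem cell kept with LIF most of them are known as genes of later lineages, and many lie in chromatin that Polycomb complexes hold silent. Their promoters are often rich in CG dinucleotides, the sequence at which cytosine methylation and its oxidation mostly occur.

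The promoters of the genes that rose together are shown because the enzyme that was knocked down acts on modified cytosines of CG dinucleotides. The sequences are the 250 bases before an annotated start, from RefSeq (GRCm38.p6), printed 5′ to 3′ on the gene's own strand with every CG in capitals. Pax6 has 2 annotated starts in the table and Pax8 has 1. Windows were matched for 7 of the 9 genes, 10 windows in all, and Pax3 and Pax4 were not matched.
Pax6 first start, chr2:105668646-105668895, plus strand: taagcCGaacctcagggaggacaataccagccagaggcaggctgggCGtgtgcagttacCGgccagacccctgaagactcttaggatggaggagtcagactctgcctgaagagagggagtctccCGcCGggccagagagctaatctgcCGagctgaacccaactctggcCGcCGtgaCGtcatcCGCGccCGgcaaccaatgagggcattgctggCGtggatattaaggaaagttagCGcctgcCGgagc
Pax6 second start, chr2:105682213-105682462, plus strand: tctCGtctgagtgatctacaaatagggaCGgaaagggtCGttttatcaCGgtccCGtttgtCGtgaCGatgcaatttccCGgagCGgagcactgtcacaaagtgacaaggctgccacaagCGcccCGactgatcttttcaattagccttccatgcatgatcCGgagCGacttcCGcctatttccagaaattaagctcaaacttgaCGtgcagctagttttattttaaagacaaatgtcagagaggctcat
Pax8, chr2:24475600-24475849, minus strand: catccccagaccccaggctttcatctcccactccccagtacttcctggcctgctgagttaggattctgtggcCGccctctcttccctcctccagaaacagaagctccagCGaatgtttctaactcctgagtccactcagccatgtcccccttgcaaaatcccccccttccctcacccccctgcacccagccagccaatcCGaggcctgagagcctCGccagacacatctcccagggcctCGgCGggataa
Each Pax6 window holds 15 CG, and 72.7% of the 32851 windows of that length in the table hold fewer. The Pax8 window holds 6, which is the median over all windows. The other family windows ran from 5 CG at the first Pax2 start to 20 at the second and 25 at the third, with 19 for Pax5, 13 for Pax7, 10 for Pax1 and 7 for Pax9. The genes that rose thus differ in CG count, with Pax6 in the middle and Pax8 near the lower end of the family's range. CCAAT, searched on both strands, was found once in the first Pax6 window and once in that of Pax8, against 33.8% of all windows with a match. The window of Pax1, which did not pass, held it at 2 places. GGGCGG, which itself contains a CG, was found once in the Pax8 window and in neither Pax6 window, and 32.7% of all windows hold it. Among the genes that did not pass, the windows of Pax1, Pax5 and Pax7 also held it. So did those of Pax2 other than at its first start, while that of Pax9 did not. Neither match was thus confined to the genes that rose. TATAAA was in none of the 10 family windows and in 12.4% of all. These matches describe the letters of the windows. Neither methylation nor the start used in these cells was measured by these arrays.

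RNA was measured on Affymetrix whole-transcript arrays, which give 1 deposited log2 signal per row and array. The column medians lay between 7.41 and 7.48 and correlations between arrays across genes ran from 0.99 to 0.998. Signal of the rows that list Tdg or its pseudogene fell by 3.03 on the log2 scale (SE 0.09, adjusted p 8.79e-05), leaving 12.2% of the control level. The 10 embryonic stem cell markers, among them Pou5f1 and Nanog, had mean levels of 12.26 to 12.31 in the control and 12.25 to 12.33 in the knockdown arrays. In limma's fit over all named genes with Benjamini-Hochberg adjustment and a threshold of 0.05, 0.241% of genes were called higher and 0.552% lower. Of the Pax genes 2 of 9 were called higher and 0 lower, and both were also called with the replicate number as a block, where 1.07% of all genes were higher. With all rows of the table tested, or without any 1 array other than knockdown replicate 3, 0 Pax genes were called, although 2 kept an unadjusted p under 0.05 in limma in each of those fits. Of all rows 0.0478% were called in the first of those fits, and of all genes 0.0% to 0.0752% in the others.

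**Figure D1:**
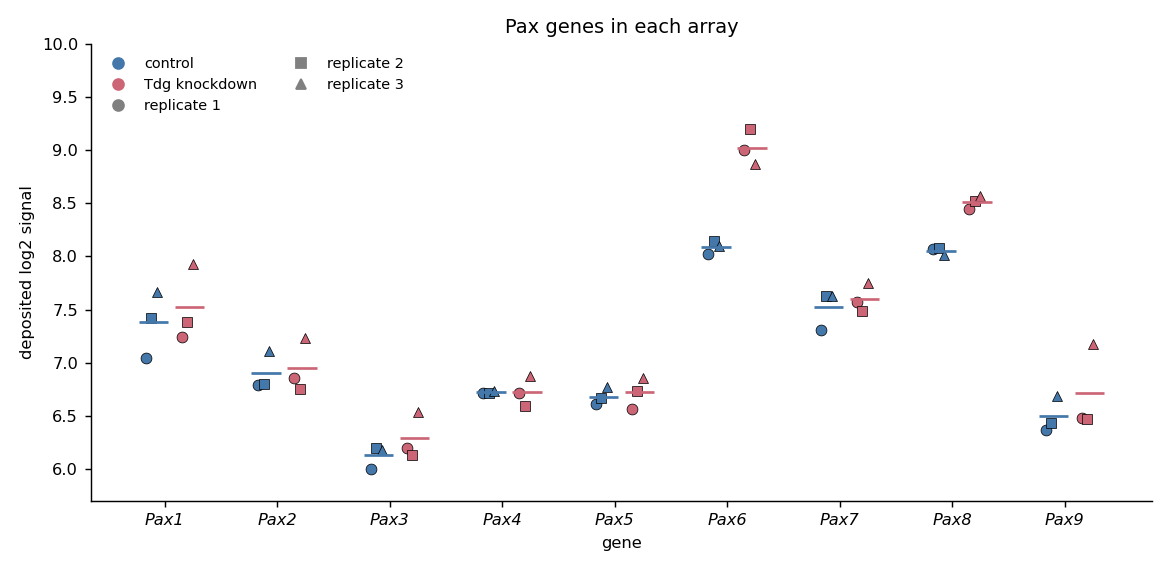
Deposited log2 signal (vertical axis) of the 9 Pax genes in each array, with control in blue, Tdg knockdown in red, marker shapes for the replicate number and a bar at each group's mean (n = 3 arrays per group). Pax6 and Pax8 are the genes whose groups do not overlap, and in the other 7 genes the highest of all arrays is knockdown replicate 3; levels are to be compared within a gene, since probe sets differ in brightness.

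Pax6, a master regulator of eye development that also acts in neural progenitors and islet cells, had log2 signals of 8.02, 8.15 and 8.10 in the control arrays. In the knockdown arrays it had 9.0, 9.20 and 8.87. The groups did not overlap, and the lowest knockdown array, replicate 3, was still well above the highest control. The difference was 0.93 ± 0.09 on the log2 scale (SE, n = 3 arrays per group; limma adjusted p 0.0145), a 1.91-fold higher signal with a 95% confidence interval of 1.64 to 2.23. It ranked second among all named genes by the size of the increase. The call was lost with all rows tested and in 5 of the 6 refits without 1 array. At most 0.0752% of all rows or genes were called there. Set against the control array of the same number, the 3 knockdown arrays were higher by 0.98, 1.05 and 0.77. An exact two-sided permutation test gave p = 0.1, the smallest that 3 arrays against 3 allow. In bulk RNA a higher level in each cell and a larger number of cells with the transcript cannot be told apart.

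Pax4, the closest relative of Pax6 and its partner in islet development, had 6.71, 6.71 and 6.73 in control and 6.71, 6.59 and 6.87 in knockdown arrays. Its groups overlapped, and the knockdown arrays lay on both sides of the controls. The difference was 0.01 with a 95% interval of -0.19 to 0.20, or up to 1.15-fold in signal (limma adjusted p 0.983). The row was dim, and whether it measured any transcript was not tested, so this interval does not bound the transcript itself.

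Pax8, which directs thyroid and kidney development, had log2 signals of 8.07, 8.08 and 8.01 in control arrays. In the knockdown arrays it had 8.45, 8.52 and 8.57. The groups did not overlap, and each group spread by less than 0.1 about its mean (SD 0.04 in control and 0.06 in knockdown). The difference was 0.46 ± 0.06 (SE, n = 3 per group; limma adjusted p 0.0331), or 1.38-fold with a 95% interval of 1.24 to 1.53. This call too was lost with all rows tested and in the same 5 refits, and further with arrays centred on their medians or without both arrays numbered 3. Of all genes 0.592% were called with arrays centred and 0.562% without both of those arrays. Array by array in numerical order the differences were 0.38, 0.44 and 0.56. The exact permutation test again gave 0.1, its smallest possible value.

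The other members of the Pax8 subfamily did not pass. Pax2, a regulator of kidney, optic stalk and midbrain, had 6.79, 6.80 and 7.11 in control and 6.86, 6.75 and 7.23 in knockdown arrays. Its highest values were those of replicate 3 in both groups, and the difference of 0.05 had an interval of -0.29 to 0.39 (limma adjusted p 0.926). Pax5, the commitment factor of B lymphocytes, had 6.61, 6.67 and 6.77 in control and 6.56, 6.73 and 6.86 in knockdown arrays. The groups overlapped, with knockdown replicate 1 below and replicate 3 above all controls. The difference was 0.03 with an interval of -0.18 to 0.25 (adjusted p 0.917).

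Pax3, which acts in neural crest and in muscle precursors, had 6.0, 6.20 and 6.18 in control and 6.20, 6.13 and 6.54 in knockdown arrays. The groups overlapped and only knockdown replicate 3 was above all controls, for a difference of 0.16 with an interval of -0.12 to 0.44 (limma adjusted p 0.671). Pax7, its relative in muscle stem cells, had 7.31, 7.63 and 7.63 in control and 7.57, 7.49 and 7.75 in knockdown arrays. Here 2 of the knockdown arrays were below 2 of the controls, and the difference was 0.08 with an interval of -0.19 to 0.35 (adjusted p 0.832).

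Pax1 and Pax9 act in the sclerotome, from which the vertebrae form, and in the pharyngeal pouches. Pax1 had 7.04, 7.42 and 7.67 in control and 7.24, 7.38 and 7.93 in knockdown arrays. It had the widest control spread of the family (SD 0.32), and its difference of 0.14 had an interval of -0.37 to 0.65 (limma adjusted p 0.846). Pax9 had 6.37, 6.43 and 6.69 in control and 6.48, 6.47 and 7.18 in knockdown arrays. A single array, knockdown replicate 3, stood above the rest, and the difference was 0.21 with an interval of -0.25 to 0.68 (adjusted p 0.747). The upper bounds for Pax1 and Pax9 correspond to 1.57-fold and 1.60-fold, so both intervals include a rise as large as that of Pax8.

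**Figure D2:**
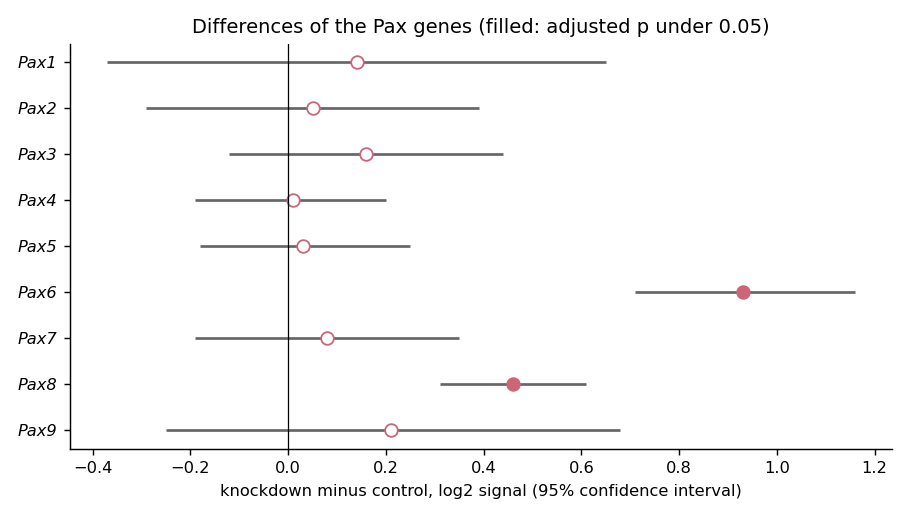
Difference of knockdown minus control in log2 signal (horizontal axis) for each Pax gene, with 95% confidence intervals from limma (n = 3 arrays per group); filled points have an adjusted p under 0.05. The intervals of Pax6 (0.71 to 1.16) and Pax8 (0.31 to 0.61) lie above 0, and those of the other 7 genes include 0.

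The differences of all 9 genes were above 0, with a median of 0.14 against 0.02 over all named genes, of which 55.5% were above 0; that of Pax4 was below 0 after quantile normalization (-0.01) and with array weights (-0.03), and those of Pax1, Pax5 and Pax7 were below 0 with array weights (-0.08, -0.05 and -0.02). This direction varied with the arrays used. Without knockdown replicate 3, 5 of the 9 genes were below 0 (Pax1 -0.07, Pax2 -0.10, Pax4 -0.07, Pax5 -0.04 and Pax9 -0.02) and the median was -0.02. Without control replicate 1, 4 were below 0 and the median was 0.00, and with array weights it was 0.01. Leaving out both arrays numbered 3 put 1 gene below 0 (Pax4, -0.06) and the median at 0.06. With knockdown replicate 1 or 2 left out the median was 0.21. Groups without overlap and higher in knockdown were found for Pax6 and Pax8, that is 2 of 9, and for 7.98% of all named genes. The 7 genes that did not pass share the array in which they were highest. Knockdown replicate 3 exceeded the mean of the other knockdown arrays by 0.22 (Pax4, Pax5 and Pax7) to 0.71 (Pax9) in them, by 0.09 in Pax8 and by -0.23 in Pax6. That array was the highest of all for 33.3% of named genes and for 59.5% of the 1027 olfactory receptor genes, whose median excess in it was 0.20. Control replicate 3 was likewise the highest control, or level with it, in 6 of the 7 Pax genes that did not pass. Its excess over the mean of the other controls ran from 0.02 (Pax4) to 0.44 (Pax1) in the 7, against a median of 0.03 over all named genes. Leaving out knockdown replicate 3 alone keeps this control array in the fit.

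The rows also differed in brightness, which is described here without ranking the transcripts. Olfactory receptor genes, mostly silent in these cells, had mean signals with a 5th percentile of 3.24, a median of 4.71 and a 95th percentile of 6.63. Pax3 (6.21) and Pax9 (6.60) lay within that range. Pax4 (6.72) and Pax5 (6.70) lay just above it, and Pax2 had 6.92, Pax1 7.45 and Pax7 7.56. Pax8 had 8.28 and Pax6 had 8.56. No detection calls were used, so whether the dim rows measured any transcript was not tested.

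Whether the signals of relatives within a subfamily changed differently was examined from their difference within each array, in all 6 pairs, a test chosen after the values were seen. The excess of Pax6 over Pax4 was 1.31, 1.44 and 1.37 in control and 2.29, 2.61 and 2.00 in knockdown arrays, a change of 0.93 with no overlap. The excess of Pax8 over Pax5 changed by 0.43, and that over Pax2 by 0.41, also without overlap. In each of these pairs the exact two-sided permutation p was 0.1, the smallest possible, or 0.2 after adjustment over the 6 pairs, so the design cannot place them past 0.05. The pairs Pax1 with Pax9, Pax2 with Pax5 and Pax3 with Pax7 changed by 0.07, -0.01 and -0.08, with groups that overlapped (exact p 0.8, 0.9 and 0.3). Whether the dim rows, such as those of Pax4 and Pax5, measured any transcript was not tested. The change of a pair therefore does not tell how the transcript of its dimmer member responded.

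The differences of Pax6 and Pax8 kept their direction in refits with fewer arrays, but most of those refits lost the calls. With a single array left out the Pax6 difference stayed between 0.85 and 1.01, but the call was lost in 5 of the 6 refits, all but that without knockdown replicate 3 (adjusted p 0.0589 to 0.106 where lost). In those 5 refits 0.0% to 0.0752% of all named genes were called, against 0.792% in the reported fit. The Pax8 difference stayed between 0.43 and 0.49 and its call was lost in the same 5 refits (adjusted p 0.101 to 0.219). With all 35557 rows tested neither was called (limma adjusted p 0.0769 for Pax6 and 0.111 for Pax8, both at an unadjusted p under 0.05), and with arrays centred on their medians Pax8 was at an adjusted p of 0.0529. Of all rows 0.0478% were called in the former setting, and of all genes 0.592% in the latter.

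**Figure D3:**
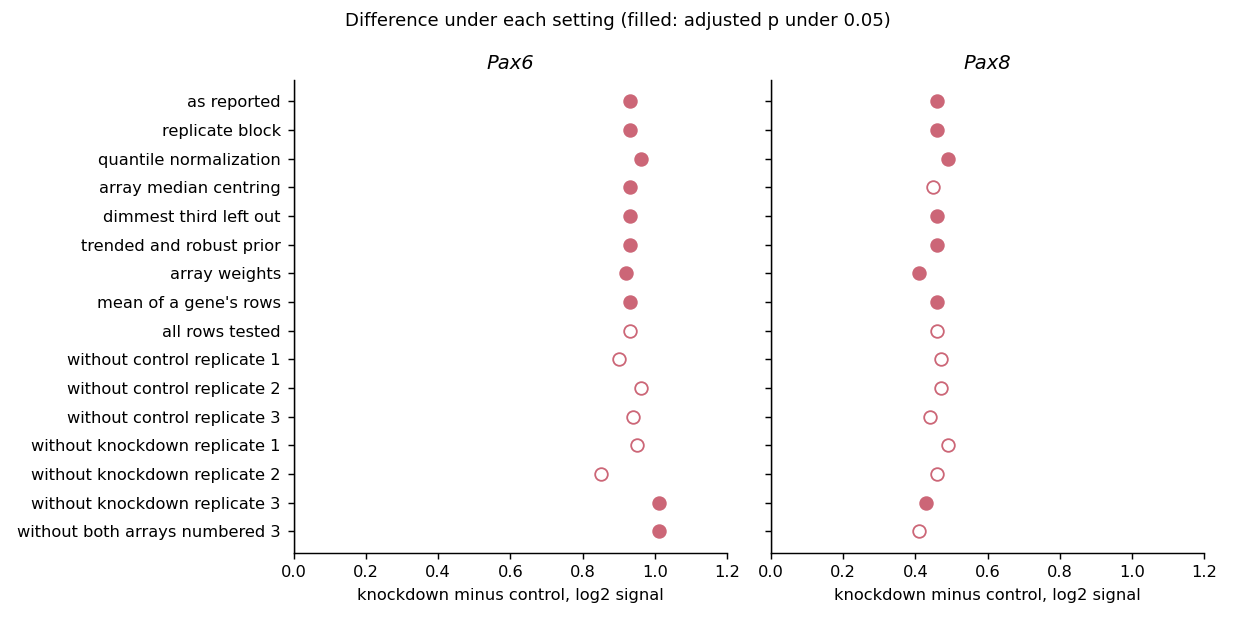
Difference of knockdown minus control in log2 signal (horizontal axis) for Pax6 and Pax8 as reported and under each of 15 other settings (rows); filled points have a limma adjusted p under 0.05. Pax6 stays between 0.85 and 1.01 and Pax8 between 0.41 and 0.49, while the call is lost in 6 settings for Pax6 and in 8 for Pax8. Of all genes or rows, 0.0% to 0.0752% were called in those 6 settings and at most 0.592% in those 8, against 0.792% as reported.

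Genes that work with Pax proteins or are known to act in the same tissues were read from the same fit, in 9 lists with 162 measured genes. None was called, and 18 (11.1%) had an unadjusted p under 0.05, against 12.5% of all named genes. With the replicate block 2 of these genes were called higher and 2 lower, or 2.47% against 3.08% of all. Some other settings that called more genes overall also called some here: 3 of the 100 left without the dimmest genes (3.0%, against 3.34% of all), 5 with a trended and robust prior (3.09% against 2.24%), 11 with array weights (6.79% against 8.19%) and 2 without knockdown replicate 3 (1.23% against 1.45%). Their median difference was 0.06.

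The cofactors were the Eya phosphatases, Six2 with its homeodomain relatives and the Dach proteins of the network that works with Pax genes, the Tle corepressors that bind several Pax proteins, and the complex of the Pax-interacting protein Paxip1. Of 22 measured cofactors 0 were called by limma (4 at an unadjusted p under 0.05), and the median difference was 0.03. The corepressor Tle2 had the smallest p, with a difference of 0.27 (adjusted p 0.222), followed by Eya4 with -0.23 (0.263).

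Of 22 genes of the eye field and lens, where Pax6 acts, such as Otx2, Lhx2, Rax and crystallin genes, 0 were called (4 unadjusted, median 0.07). The lens crystallin and small heat shock protein gene Cryab had 8.80, 8.89 and 8.98 in control and 8.51, 8.51 and 8.53 in knockdown arrays. All knockdown arrays were below the controls, the opposite of Pax6, by -0.37 (adjusted p 0.0659, or 0.0368 with the replicate block). The homeobox gene Otx2 differed by -0.31 (0.136). Of 23 neural progenitor genes 0 were called (2 unadjusted; median 0.08), while with the block 1 was higher and 1 lower. The intermediate filament gene Nes had 9.38, 9.51 and 9.34 in control and 8.88, 8.99 and 8.55 in knockdown arrays. It was below the controls in all of them, by -0.60 (adjusted p 0.0845, blocked 0.0246), and the neuronal tubulin gene Tubb3 differed by 0.36 (0.124, blocked 0.0423).

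Of 15 islet genes related to Pax4 and Pax6, 0 were called (1 unadjusted; median 0.09). Neurod1, a helix-loop-helix factor of islet and neuronal cells, had the smallest p at -0.48 (adjusted p 0.195), and the prohormone convertase gene Pcsk1 differed by -0.12 (0.554). Among 21 midbrain, kidney and thyroid genes related to Pax2 and Pax8, 0 were called (3 unadjusted; median 0.09). The homeobox gene Gbx2, which helps set the midbrain-hindbrain boundary and is also active in embryonic stem cells, had 9.82, 9.85 and 9.89 in control and 10.20, 10.20 and 10.18 in knockdown arrays. The groups were clearly apart, by 0.34 (adjusted p 0.0563, blocked 0.0369). Wt1, a zinc finger factor of kidney development, differed by 0.17 (0.292).

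The lists for the remaining subfamilies held no called gene, also with the block. The 14 B cell genes of Pax5 had a median of 0.03 (1 unadjusted), with Ebf1, a B lineage factor, at -0.22 (adjusted p 0.318) and the recombinase gene Rag1 at 0.20 (0.444). The 19 muscle, neural crest and pigment genes of Pax3 and Pax7 had a median of 0.09 (3 unadjusted). Foxd3, a forkhead factor of neural crest and pluripotent cells, differed by 0.34 (0.123) and Mitf, the melanocyte regulator, by -0.31 (0.269). The 15 sclerotome, thymus and tooth genes of Pax1 and Pax9 had a median of 0.10 (1 unadjusted), with the signalling ligand gene Bmp4 at 0.21 (0.204) and Tbx18 at 0.15 (0.670). Of 22 other homeobox genes of the paired class, the nearest relatives of Pax homeodomains, 0 were called (1 unadjusted; median 0.02), with Otx2 at the value above and Alx1 at 0.17 (0.465).

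**Figure D4:**
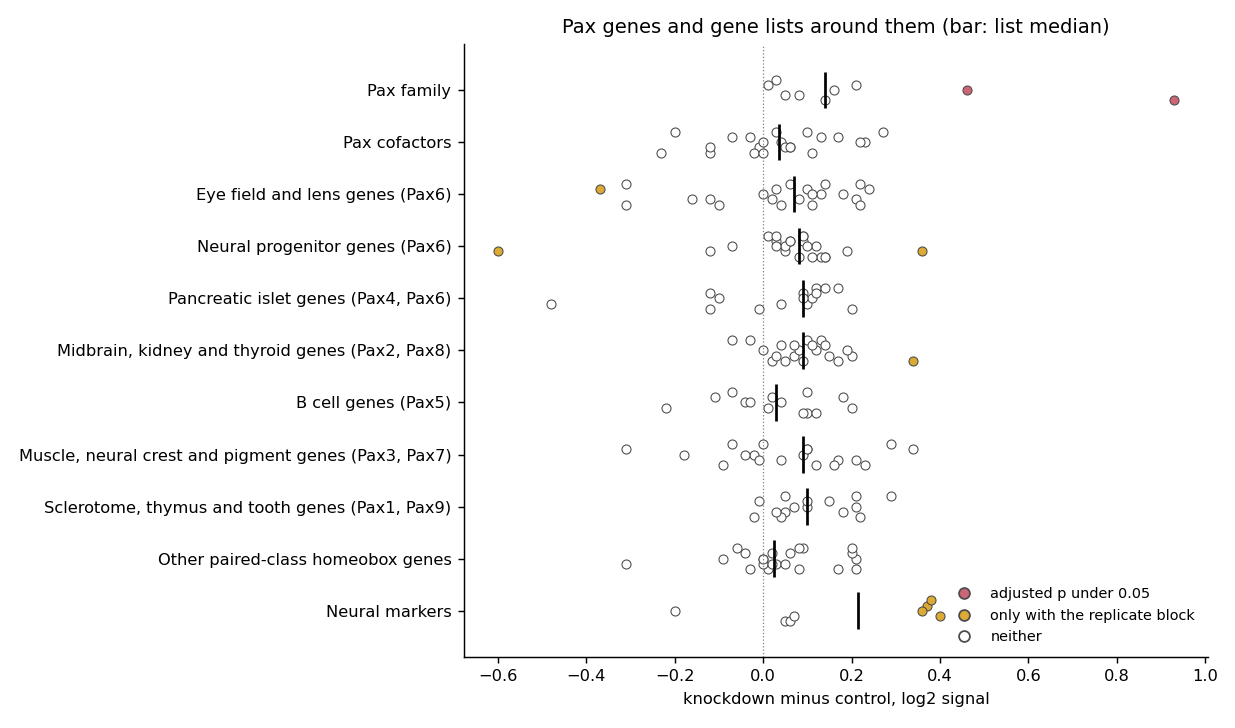
Difference of knockdown minus control in log2 signal (horizontal axis) for every measured gene of the Pax family, of the 9 lists around it and of the neural markers (rows), with a bar at each list's median; red points have a limma adjusted p under 0.05, yellow points only with the replicate block. Pax6 (0.93) and Pax8 (0.46) are the 2 red points, and 4 of the 8 neural markers are yellow.

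Markers of other cell types were read beside these results, since Pax6 marks neural cells. Of 8 neural markers 0 were called by limma, and 5 had an unadjusted p under 0.05, against 12.5% of all named genes. Among these 5 was Gap43, which was lower in knockdown. Their median difference was 0.21, and 4 were called higher with the replicate block, against 1.07% of all. In other settings 1 was called with quantile normalization (0.988% of all genes) or without knockdown replicate 3 (1.45%). With a trended and robust prior (2.24% of all) or without the dimmest genes (3.34%) 2 were called, and 3 with array weights (8.19%). The adhesion molecule gene Ncam1 had 9.20, 9.20 and 9.19 in control and 9.57, 9.67 and 9.5 in knockdown arrays. The RNA-binding protein gene Elavl3 had 8.59, 8.56 and 8.72 in control and 8.93, 8.97 and 9.16 in knockdown arrays. Both were higher in every knockdown array, by 0.38 (adjusted p 0.0577, blocked 0.0356) and 0.40 (0.0983, blocked 0.0297). Map2, a microtubule protein of neurons, differed by 0.37 (0.137, blocked 0.0423). Stmn2, a stathmin of neurons, was above the controls in every knockdown array by 0.07 (0.734). Of all named genes 7.98% were above all controls in every knockdown array. Sox1, the early neural plate factor, differed by 0.06 (0.838) and the migrating neuron gene Dcx by 0.05 (0.909), and the growth cone gene Gap43 was lower in all knockdown arrays at -0.20 (0.325). The mean level over the 8 markers was 8.77 to 8.79 in control and 8.91 to 9.01 in knockdown arrays. Of the 7 fibroblast, 8 endoderm and 7 trophoblast markers 0 were called, also with the block (0, 1 and 2 unadjusted), with medians of 0.06, 0.12 and 0.00. With array weights 1 endoderm and 1 trophoblast marker were called. The fibroblast markers ran at mean levels of 6.61 to 6.84 in control and 6.63 to 7.0 in knockdown arrays. For the endoderm markers these were 6.89 to 7.03 and 6.92 to 7.15, and for the trophoblast markers 6.59 to 6.74 and 6.63 to 6.80. The part of neural marker signal in the Pax6 difference was not tested.

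**Figure D5:**
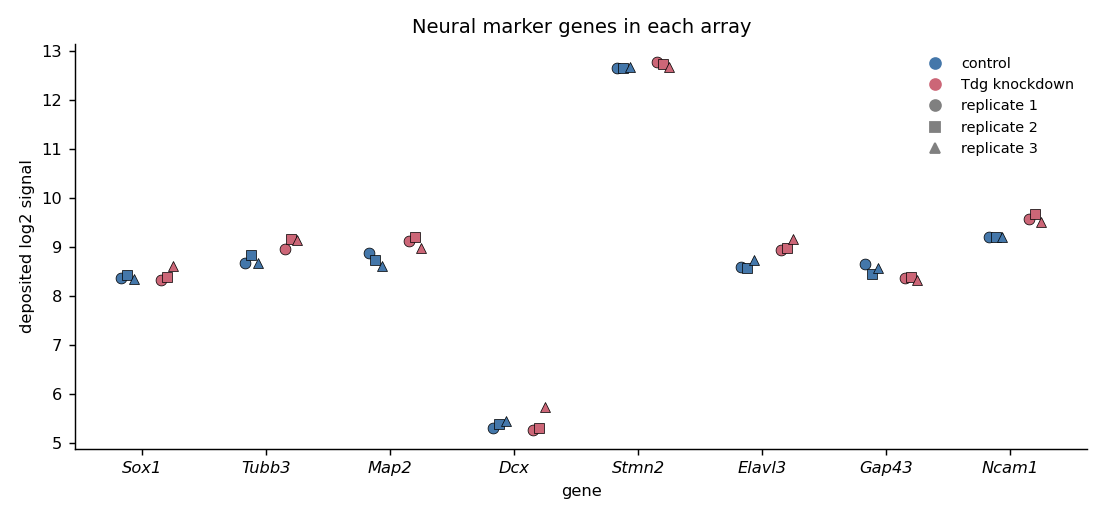
Deposited log2 signal (vertical axis) of 8 neural marker genes in each array, with control in blue, Tdg knockdown in red and marker shapes for the replicate number (n = 3 arrays per group). Tubb3, Map2, Stmn2, Elavl3 and Ncam1 are higher in every knockdown array, Stmn2 by only 0.07, while Sox1 and Dcx overlap and Gap43 is lower. Of all named genes 7.98% are higher without overlap.

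The nearest measured genes on either side of each Pax gene, 18 in all by their order in RefSeq, held 0 called genes (limma, lowest adjusted p 0.0845) and 1 with the replicate block. Over all named genes 0.792% were called, and 3.08% with the block. Beside Pax6, on chromosome 2, the calcium-binding protein gene Rcn1 had 10.37, 10.30 and 10.34 in control and 10.26, 10.32 and 10.23 in knockdown arrays, a difference of -0.07 (adjusted p 0.742). On the other side Elp4, an Elongator subunit gene known to carry regulatory elements of Pax6 in its introns, had 10.65, 10.45 and 10.54 in control and 10.86, 10.70 and 10.65 in knockdown arrays. Its groups overlapped at a single shared value, and the difference was 0.19 (0.426). The neighbours of Pax8, also on chromosome 2, were Psd4 with 0.07 (0.756) and the calcium channel gene Cacna1b with -0.14 (0.460). The gene called with the block was the ephrin receptor gene Epha4 beside Pax3, which was lower by -0.40 (adjusted p 0.0845, blocked 0.0276). No neighbour of Pax6 or Pax8 was called, which at these shares over all genes says little about them.

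The genes whose values over the 6 arrays, each centred on its own mean, lay nearest to those of Pax6 were Nlrc4, Zp3, Id3, Ntn1 and Sfxn1. Predicted models, microRNAs and small nucleolar RNAs were left out of this choice. Their root mean square differences from Pax6 were 0.06, 0.07, 0.08, 0.10 and 0.10 on the log2 scale. For Pax8, a choice made after its values were seen, they were Cd34, Epas1, Tcstv3 and Ddx58 at 0.05 and Stmn3 at 0.06. With so few arrays this likeness is mostly that of the difference between the groups, which was 0.77 to 0.95 in the first 5 genes and 0.39 to 0.56 in the second.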

How the data were processed

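The values are log2 signals as deposited by the authors. Per the submitters' processing notes the tool was Affymetrix Expression Console, and the sources used here do not give its version, summarisation or normalization. The table has 35557 rows, of which the platform annotation gives 1 gene for 21789, several for 1621 and none for 12147. Symbols were updated by gene identifier through RefSeq (GRCm38.p6; 21698 rows matched), used for names, gene order and promoter sequences. Each gene was represented by its brightest row, which left 19938 genes, and rows with several genes or none were not named.

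The groups were compared in R 4.3.3 with limma 3.58.1 (lmFit, eBayes, two-sided), with Benjamini-Hochberg adjustment over all named genes. The fit was tried on simulated data with independent noise per gene and array. That trial lacks the correlation between arrays given below, so it does not give the error rate in these data. With 3 arrays per group their number limits the precision. The Pax genes and all lists were chosen with earlier results of these data known. The genes named are the 9 Pax genes, list members past the threshold or, where none passed, the 2 with the smallest p, the nearest genes on each side, the 5 nearest profiles to Pax6, and Tdg; others, such as those called only with the block, were chosen after their values were seen. For arrays that share a replicate number in their titles, deviations from their group's mean correlated at 0.615, 0.233 and 0.704 across genes. The reported fit did not pair the arrays. The numbers were taken to pair them only in a fit with the replicate number as a block, which these correlations do not establish as a pairing. The alternatives were this replicate block, other normalizations, filters, priors and weights, and leaving out arrays.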

Additional observations from a re-analysis of the deposited data

How the results depend on the processing

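The number of all genes called by limma, 158 as reported, was 614 with the replicate block, 444 without the dimmest 33.3% of genes, 446 with a trended and robust prior, 1633 with array weights and 17 with all rows tested. It ran from 0 to 290 with 1 array left out (0 when control replicate 1 or 2 or knockdown replicate 1 was left out, where 1682, 1510 and 1959 had an unadjusted p under 0.05). Of the 2 Pax genes called, 2 were called with the block, 1 with arrays centred on their medians or without both arrays numbered 3, 0 with all rows tested and 0 to 2 with 1 array left out; in each of these settings 2 had an unadjusted p under 0.05. Pax6 was not called with all rows tested (0.93) and ran from 0.85 to 1.01 with 1 array left out. Pax8 was not called with arrays centred (0.45), with all rows tested (0.46) or without both arrays numbered 3 (0.41), and ran from 0.43 to 0.49 with 1 array left out. Both stayed above 0 in all 15 settings, and the replicate block changed no call of a Pax gene. Among the 7 others, none was called in any setting, and signs changed for Pax1 (-0.08), Pax4 (-0.03), Pax5 (-0.05) and Pax7 (-0.02) with array weights and for Pax4 with quantile normalization (-0.01) or without both arrays numbered 3 (-0.06). With 1 array left out Pax1 ran from -0.07 to 0.29, Pax2 from -0.10 to 0.15, Pax4 from -0.07 to 0.07, Pax5 from -0.04 to 0.11, Pax7 from -0.03 to 0.14 and Pax9 from -0.02 to 0.33. Array weights were estimated gene by gene, since the default estimate did not converge. Pax3, Pax4, Pax5 and Pax9 were left out with the dimmest genes. Apart from the centring, the settings with lost calls had fewer arrays or more rows tested. Both calls were kept without knockdown replicate 3, however, and that of Pax6 also without both arrays numbered 3. Why calls were lost was not tested.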
